A study of Mus musculus with 23 samples.

Results

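The natriuretic peptide and cardiac stress genes comprised 7 symbols. Of these, Nppa and Nppb encode natriuretic peptides, and Acta1, Csrp3 and Ankrd1 encode proteins of the sarcomere and its Z disc. Xirp1 encodes an actin-binding protein of the intercalated disc, and Ctgf encodes a matricellular protein. The members were found by symbol in the probe-to-gene table of the array, which gave 7 probes for 6 of the 7 genes among 24048 probes, with 2 probes for Csrp3 and with Ctgf under its present symbol Ccn2. Nppa had no probe under its symbol in that table and was not analysed here. Expression was measured in hearts, livers and spleens of 12 weeks old male BALB/c mice that drank oil palm phenolics (OPP), a water-soluble extract of the oil palm fruit, at 1500 ppm gallic acid equivalent for 6 weeks, or that drank distilled water (control). All mice ate the same normal diet and were fasted overnight before blood was drawn by cardiac puncture and the organs were excised. There were 4 OPP and 4 control hearts, 3 OPP and 4 control livers, and 4 OPP and 4 control spleens, with 1 mouse per array. Different organs of the same mouse can be among the arrays. The labels do not tie organs to mice, so that comparisons between organs took all arrays as independent and left any such pairing out. OPP and control mice were housed in separate cages, and cage and drink cannot be told apart here.

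Atrial and B-type natriuretic peptides are hormones that cardiomyocytes release when the heart wall is stretched, and they act through receptors that make cyclic GMP and lower blood volume and pressure. Together with skeletal muscle actin, which the adult ventricle largely replaces with cardiac actin, they are the classical genes of the fetal programme that returns in the overloaded heart. Csrp3 (muscle LIM protein) and Ankrd1 (cardiac ankyrin repeat protein) sit in the stretch-sensing structures of the sarcomere, Xirp1 binds actin at the intercalated disc, and Ctgf accompanies tissue repair and fibrosis.

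Levels were first compared between organs in the control mice, because each of these genes except Ctgf is known as a gene of heart or skeletal muscle. Values are log2 intensities after background correction and quantile normalisation of the 23 arrays together, and a probe was counted as detected on an array at a detection p under 0.01, that is, where it outshone nearly all negative control beads. All 7 probes were detected on all 8 hearts. Nppb, Acta1, Ankrd1 and Xirp1 were detected on no liver array of either group, and Nppb, Ankrd1, Xirp1 and both Csrp3 probes were detected on no spleen array. Whole organs were used, so that fewer cells of a type and less RNA per cell cannot be told apart in any of the comparisons.

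The start regions of Nppb, Acta1 and Ankrd1 are shown, since these 3 members were detected on all hearts and on no liver and their windows hold motifs known from cardiac promoters. RefSeq start windows (assembly GRCm38.p6, 250 bases before to 50 bases after the annotated start) were given for 5 of the 7 members. Capitals mark every match, on either strand, to 4 motifs, and no matches overlap in these windows. The motifs were CATTCC, the MCAT core that TEAD factors bind. The next was AGATAA, a core of GATA factor sites. The others were TATAAA, the TATA box, and the CArG box, which serum response factor binds.
Nppb, chr4:147985650-147985949, plus strand: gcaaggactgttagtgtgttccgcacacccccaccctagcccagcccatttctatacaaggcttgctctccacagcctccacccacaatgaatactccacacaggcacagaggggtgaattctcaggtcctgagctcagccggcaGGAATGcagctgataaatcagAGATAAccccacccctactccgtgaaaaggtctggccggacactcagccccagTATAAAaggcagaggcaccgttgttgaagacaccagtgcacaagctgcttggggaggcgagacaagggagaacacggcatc
Acta1, chr8:123894726-123895025, minus strand: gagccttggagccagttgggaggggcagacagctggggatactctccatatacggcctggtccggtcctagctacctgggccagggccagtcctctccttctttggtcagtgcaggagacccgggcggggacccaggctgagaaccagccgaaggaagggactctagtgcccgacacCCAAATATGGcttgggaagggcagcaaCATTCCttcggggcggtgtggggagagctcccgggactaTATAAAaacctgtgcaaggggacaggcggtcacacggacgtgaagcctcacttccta
Ankrd1, chr19:36119795-36120094, minus strand: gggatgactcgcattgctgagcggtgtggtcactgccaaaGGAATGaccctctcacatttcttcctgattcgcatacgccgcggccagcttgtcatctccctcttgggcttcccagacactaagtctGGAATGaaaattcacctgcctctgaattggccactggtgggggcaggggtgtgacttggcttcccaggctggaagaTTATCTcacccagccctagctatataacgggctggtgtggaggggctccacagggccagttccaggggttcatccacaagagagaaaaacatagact
Of 32851 RefSeq start windows of the same length, 14.7% held CATTCC, 11.2% held AGATAA, 13.6% held TATAAA and 1.63% held a CArG box. In the Nppb window CATTCC lay at -105 on the opposite strand, AGATAA at -84 and TATAAA at -31, counted from the start. The Acta1 window held a CArG box at -73, CATTCC at -46 and TATAAA at -7. The Ankrd1 window held CATTCC at -210 and -123 and AGATAA at -47, all on the opposite strand. Of the other windows given, that of Nppa held TATAAA only and the 2 of Csrp3 held none of the 4 motifs. These matches describe the letters of the windows only, and no binding was measured.

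A probe was tested between 2 organs if 3 or more control arrays of either organ detected it. Outside the heart only the 2 Csrp3 probes in the liver and Ctgf in the spleen met this. The other member probes entered through the heart alone, so that their higher level there was given by the filter and is no test result. Both Csrp3 probes against livers and Ctgf against spleens were higher in control hearts with an adjusted p under 0.05 (limma with Benjamini-Hochberg adjustment). At this threshold 48.1% of 9792 probes were higher in the heart against livers and 41.8% of 10289 against spleens. Where a probe was detected on no array or on only some control arrays of the other organ a bound is given, the mean of the control hearts over the dimmest level that was still detected on the arrays of that organ or over the probe's own level if that was higher.

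Nppb, the B-type natriuretic peptide, had a mean of 13.48 ± 0.12 (SD, n = 4) in control hearts. This was at least 102.3-fold above control livers and at least 180-fold above control spleens. Its raw intensity was 10037 to 11783 in control hearts, against 133.6 to 141.6 in control livers and 56.8 to 61.5 in control spleens. The last of these ranges lay below the background estimated for the control spleen arrays, 77.3 to 86.0. Ankrd1 was at least 181-fold higher in control hearts than in control livers and at least 318-fold higher than in control spleens. Xirp1 was at least 11.1-fold higher than in control livers and at least 19.5-fold higher than in control spleens.

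Acta1, the actin of skeletal muscle, was at least 283-fold higher in control hearts than in control livers. In spleens it was detected on 1 array, control replicate 2, with a raw intensity of 170.4 against 72.7 to 80.2 on the other 3 control spleens and 60.7 to 75.2 on the 4 OPP spleens. With 1 of 4 control spleens above background, control hearts were at least 451-fold above control spleens. Of the 10 probes of skeletal muscle marker genes, 1 (Mylpf) was detected on all 8 spleens, Tnni2 and Tnnt1 were detected on some, and 7 were detected on none. The part of adhering muscle in this value was not tested.

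Csrp3 departed from the other sarcomere genes among the members in that both probes were detected on all 7 livers. The probes are called A (scl000134.1_57-S) and B (scl31320.8.1_2-S) here. Of 24 other sarcomere and Z disc genes listed, 19 had a probe and 7 were detected often enough in livers to be tested. These were Fhl1, Cryab, Vcl, Pdlim5, Csrp1, Csrp2 and Bag3. Tcap, Actn2, Myoz2, Hspb7, Des, Mypn, Myom1 and Myom2 were among those with a probe that were not detected often enough. With the livers normalised alone, Csrp2 had a mean of 9.84 in control livers, against 9.49 for Csrp3 at probe B. Probe A was 46.9-fold higher in control hearts than in control livers, with means of 13.08 ± 0.05 and 7.52 ± 0.26 (SD, n = 4 each, adjusted p = 3.03e-21). Probe B was 27.96-fold higher, with means of 14.16 ± 0.07 and 9.35 ± 0.09 (adjusted p = 1.69e-22). Against spleens the bounds were at least 136-fold for A and at least 288-fold for B, so that the order of organs was heart, liver, spleen at both probes, with no overlap between the arrays of any 2 organs. The 12 probes of 11 cardiomyocyte marker genes showed no such liver signal, since 11 of them were detected on no liver array and the remaining one, for Actc1, on some. Of the 10 probes of skeletal muscle marker genes, 9 were detected on no liver array and 1, for Pvalb, on all 7, at 8.97 to 9.95 in OPP livers and 9.21 to 9.74 in control livers in the normalisation of the livers alone. The part of muscle tissue in the liver level of Csrp3 was not tested.

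Ctgf was present in all 3 organs. Control hearts (12.40 ± 0.25) were 5.55-fold above control spleens (9.93 ± 0.38, SD, n = 4 each, adjusted p = 9.43e-09 by limma). They were at least 36.1-fold above control livers (measured mean 7.08 ± 0.72), and the ranges of the 3 organs did not overlap. Only 2 of 4 control livers and 2 of 3 OPP livers detected it, so that its level in the liver lies at the edge of detection.

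**Figure D1:**
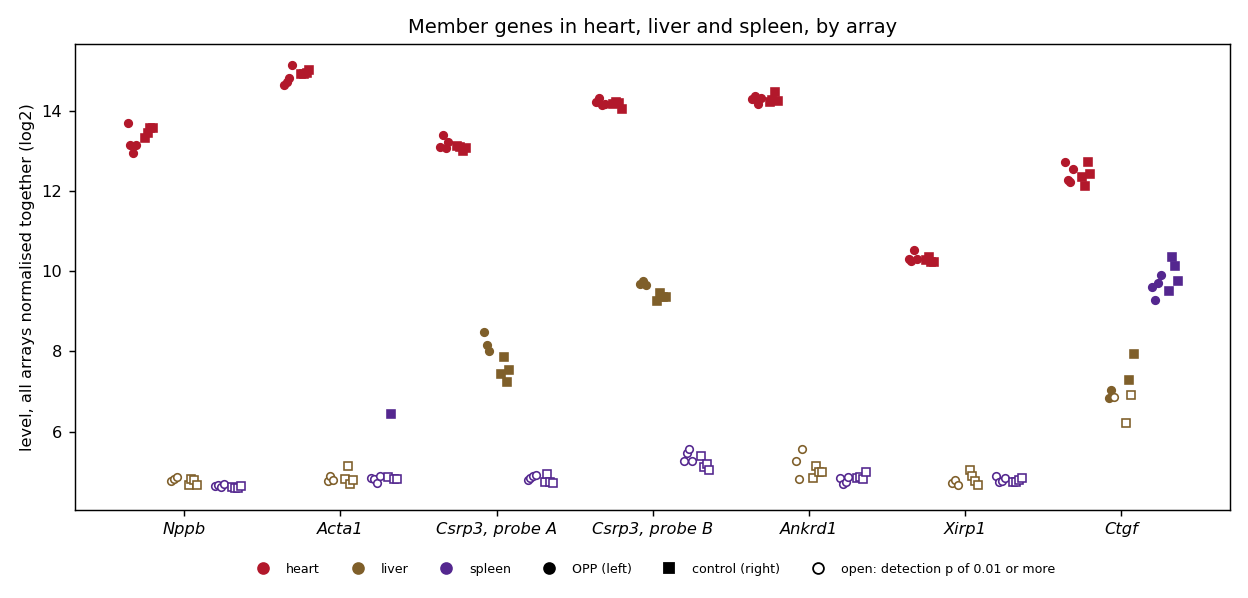
The normalised level (log2, all 23 arrays normalised together) of each member probe is plotted for every heart, liver and spleen array, OPP arrays as circles on the left and control arrays as squares on the right of each organ, with open symbols where the detection p was 0.01 or more. Only Csrp3 in the liver and Ctgf in the liver and spleen rise from the floor of open symbols outside the heart, apart from Acta1 on 1 control spleen.

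The central question was whether the stress genes of the heart differed between mice given OPP and mice given water. For this the 8 hearts were normalised on their own and 9172 probes were tested. No member probe was called: 0 of 7 passed an adjusted p of 0.05 and 0 of 7 an unadjusted p of 0.01, the threshold of the study. Across all tested probes 0% passed the adjusted threshold, 4.61% the unadjusted one and 14.1% an unadjusted p of 0.05, which no member reached. The OPP minus control differences ran from -0.20 for Nppb to 0.10 for Csrp3 at probe A on the log2 scale, 4 of them positive and 3 negative, with a median of 0.05 against 0.00 over all probes. With median scaling in place of quantile normalisation all 7 were negative, from -0.34 for Nppb to -0.056 for Csrp3 at probe A, where the median over all probes was itself -0.12. OPP hearts 3 and 4 stood apart from the other 6 hearts in the atrial marker genes Myl7, Myl4 and Dkk3, and without them 0 of 7 members passed the adjustment too.

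Nppb had levels of 13.44, 12.98, 12.81 and 13.003 in OPP hearts 1 to 4, against 13.12, 13.24, 13.34 and 13.33 in control hearts 1 to 4. OPP heart 1 was the highest of all 8 and the other 3 OPP hearts lay below every control heart. The mean difference was -0.20 (SE 0.11, 95% confidence interval -0.45 to 0.05, adjusted p = 0.464 by limma), and a two-sided exact permutation test over the arrays gave p = 0.20, where 4 against 4 allows no p below 0.0286. Without OPP heart 1 the difference was -0.33 with an unadjusted p of 0.0017 and an adjusted p of 0.0971, and without OPP heart 3 it was -0.12 (adjusted p = 0.758), so that single arrays moved it by over 1.5 times in either direction.

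Atrial tissue is rich in natriuretic peptides, and the hearts differed in some atrial marker genes. Myl7, the atrial regulatory light chain, had levels of 13.23, 13.54, 11.31 and 11.41 in OPP hearts 1 to 4, against 13.42, 13.20, 13.51 and 13.43 in control hearts 1 to 4. Myl4, the atrial essential light chain, had 14.10, 14.05, 12.82 and 12.21 in OPP hearts against 14.03, 13.96, 14.10 and 14.15 in control hearts. OPP hearts 3 and 4 thus stood apart from the other 6 at both genes, and Dkk3, another atrial marker, was likewise lowest in them at 10.31 and 10.23, where the other 6 hearts had 11.09 to 11.40.

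Over the atrial list, 7 of 11 genes were tested and 4 of these were lower in OPP hearts. One of them (Myl7, -1.01, SE 0.44, adjusted p = 0.341 by limma) was lower at an unadjusted p of 0.05, where 7.85% of all heart probes were. The 3 higher in OPP hearts were Clu (0.22), Kcna5 (0.20) and Tbx5 (0.12), with adjusted p values of 0.580, 0.542 and 0.797. Nr2f1, the remaining one, differed by -0.17. The summed normalised intensity of the list was 12158 to 36665 in OPP hearts and 31616 to 35373 in control hearts, while that of 5 ventricular markers was 53897 to 55018 in OPP hearts and 51577 to 52562 in control hearts. Of these ventricular markers 3 were higher in OPP hearts, Myl3 (0.14), Kcnip2 (0.12) and Myl2 (0.01). The other 2 were lower, Irx4 (-0.10) and Kcne1 (-0.71), and no adjusted p was under 0.05. Sln, Bmp10, Nr2f2 and Kcnj3, also on the atrial list, were not detected often enough to be tested. Left without OPP hearts 3 and 4, Nppb differed by -0.05 (adjusted p = 0.949), while OPP heart 2, which was not low in atrial markers, lay below every control heart at 12.98. The part of atrial tissue in the Nppb value was not tested.

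**Figure D2:**
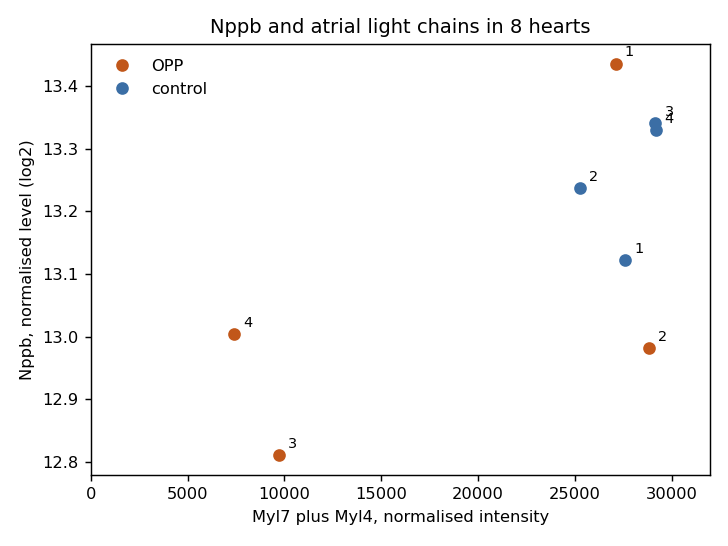
The normalised log2 level of Nppb (vertical axis) is plotted against the summed normalised intensity of Myl7 and Myl4 (horizontal axis) for 4 OPP and 4 control hearts, numbered by replicate. OPP hearts 3 and 4 sit at 9720 and 7423 on the horizontal axis, where the other 6 hearts span 25274 to 29169, and OPP heart 2 has low Nppb with 28840.

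Acta1 had levels of 14.39, 14.47, 14.53 and 14.80 in OPP hearts 1 to 4, against 14.63, 14.63, 14.67 and 14.71 in control hearts 1 to 4. Here too 3 OPP hearts lay below every control heart and the remaining one, OPP heart 4, above them all, though it was another heart than for Nppb. The difference was -0.12 (SE 0.08, 95% confidence interval -0.29 to 0.06, adjusted p = 0.549 by limma, exact permutation p = 0.257). Without OPP heart 4 it was -0.19 at an unadjusted p of 0.0060 and an adjusted p of 0.262, without OPP heart 1 it was -0.06, and without OPP hearts 3 and 4 it was -0.23 at an unadjusted p of 0.0039 and an adjusted p of 0.649.

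The raw intensities of Acta1 did not overlap, with 19758 to 25805 in OPP hearts and 26447 to 28681 in control hearts. The same held for 36.3% of the tested probes, and the background estimated for each array was 50.6 to 55.3 in OPP hearts and 57.8 to 62.4 in control hearts, so that the separation of raw values was shared by a large part of the array and was not left after normalisation.

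The remaining sarcomere genes lay close to their controls. Csrp3 at probe A had 12.96, 13.18, 12.93 and 13.04 in OPP hearts against 12.97, 12.96, 12.85 and 12.93 in control hearts, a difference of 0.10 (SE 0.06, 95% confidence interval -0.04 to 0.24, adjusted p = 0.505). Probe B gave a difference of 0.06 (95% confidence interval -0.08 to 0.20, adjusted p = 0.684), and the intervals of both probes included 0. Ankrd1 had 13.90 to 14.13 in OPP hearts and 13.96 to 14.26 in control hearts, with a difference of -0.02 (95% confidence interval -0.19 to 0.15, adjusted p = 0.933).

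Xirp1 had 10.05, 9.999, 10.28 and 10.05 in OPP hearts against 10.03, 10.10, 9.97 and 9.98 in control hearts. OPP heart 3 was the highest and the groups overlapped otherwise, with a difference of 0.07 (95% confidence interval -0.08 to 0.23, adjusted p = 0.669). Ctgf varied most, with 12.56, 12.11, 12.07 and 12.39 in OPP hearts against 12.19, 11.92, 12.56 and 12.27 in control hearts. All 4 OPP values fell within the range of the controls, and the difference was 0.05 (95% confidence interval -0.26 to 0.35, adjusted p = 0.909).

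**Figure D3:**
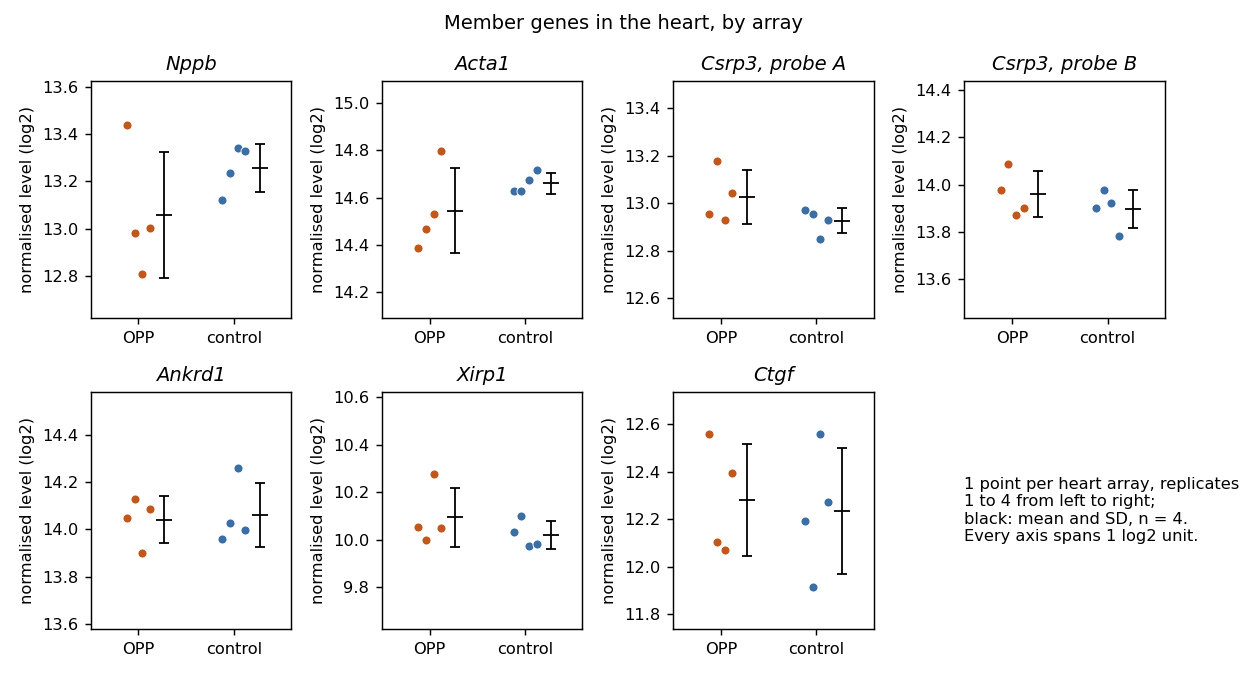
The normalised log2 level of each member probe is plotted for 4 OPP (left) and 4 control (right) hearts, replicates 1 to 4 from left to right, with the mean and SD beside the points and every vertical axis spanning 1 log2 unit. For Nppb and Acta1, 3 OPP hearts lie below every control heart and 1 lies above, a different heart for each gene, and the other probes overlap.

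The width of these intervals differed with the spread of the gene. The pooled SD within groups was 0.25 for Ctgf and 0.20 for Nppb, larger than for 86.3% and 74.3% of the tested probes, against a median of 0.15 over all probes. It was 0.09 at both Csrp3 probes, 0.10 for Xirp1, 0.12 for Ankrd1 and 0.13 for Acta1. The upper ends of the intervals stayed at or below 0.35 and the lower ends at or above -0.45, so that a change of 1 log2 unit in the group means lay outside the interval of every member in the heart. This holds for normalised values, whose top in the hearts was 15.16. Acta1, with a control mean of 14.66, could not have shown a rise of 1 log2 unit.

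**Figure D4:**
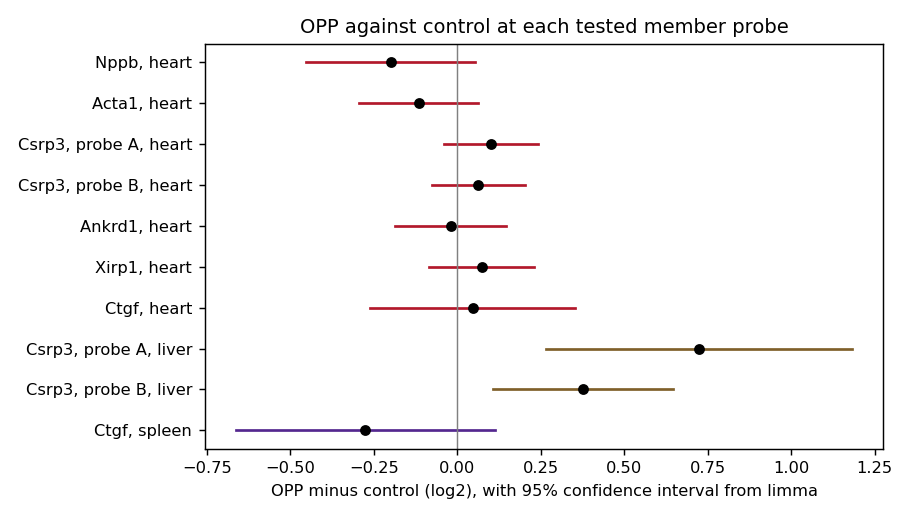
The OPP minus control difference (log2) of each tested member probe is drawn with its 95% confidence interval from limma, 7 probes in the heart, 2 in the liver and 1 in the spleen. All 7 intervals in the heart include 0, and the 2 intervals of Csrp3 in the liver, at 0.27 to 1.18 and 0.11 to 0.64, do not, though neither passed the adjustment over all probes.

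In the liver only Csrp3 could be tested among 6434 probes, and its values were higher in OPP livers at both probes without passing the adjustment. The livers of both groups varied widely in neutrophil genes. Probe A had 8.52, 8.18 and 8.01 in OPP livers against 7.43, 7.86, 7.24 and 7.52 in control livers, a difference of 0.73 (SE 0.20, 1.65-fold). Probe B had 9.85, 9.93 and 9.81 in OPP livers against 9.38, 9.61, 9.48 and 9.48 in control livers, a difference of 0.38 (SE 0.12, 1.298-fold). Every OPP liver lay above every control liver at both probes, a pattern found at 6.53% of all tested probes.

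Neither probe passed the adjustment, with adjusted p values of 0.300 for A (unadjusted 0.0061) and 0.359 for B (unadjusted 0.0114) by limma, and 0% of the liver probes did. The unadjusted threshold of 0.01, which A passed, was passed by 2.92% of the liver probes. The exact permutation test gave p = 0.0571 for A and 0.0286 for B, where 3 against 4 arrays allow no p below 0.0286. In a fit of all 23 arrays with 1 variance per probe, the adjusted p was 0.0037 for A and 0.0319 for B, where 6.64% of 6419 liver probes passed. Probe A is on the study's own list of changed liver genes, which was drawn from these samples, so that its direction is not independent evidence.

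Neutrophil markers, 4 genes tested, summed to 7587, 24232 and 1038 in OPP livers 1 to 3 and to 2848, 1242, 61507 and 43135 in control livers 1 to 4. Without control livers 3 and 4, the 2 with the highest sums, the difference was 0.59 for A (adjusted p = 0.554) and 0.37 for B (adjusted p = 0.578). Without OPP liver 2, the next in order, as well, it was 0.62 for A and 0.34 for B (adjusted p = 0.830 for both). Both choices were made after seeing the data. The array background of OPP liver 3 was 369.8 against 156.0 to 170.9 in control livers, and without this array the differences were 0.85 and 0.40. Cardiomyocyte markers could not be tested in the liver, with 11 of 12 probes detected nowhere, and the 8 hepatocyte markers tested had a median difference of 0.03.

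The response of Csrp3 in the heart was set against that in the liver by an interaction term over 5584 probes tested in both organs. The OPP minus control difference was 0.12 in the heart and 0.69 in the liver at probe A, and their difference of -0.57 (SE 0.17) had an adjusted p of 0.163. At probe B it was 0.06 in the heart and 0.34 in the liver, and their difference of -0.28 (SE 0.13) had an adjusted p of 0.341. Of all probes 0.0716% passed this test at an adjusted p of 0.05 and 4.26% at an unadjusted p of 0.01, which A passed with 0.0029. Without control liver 2 the difference at A was -0.68 with an adjusted p of 0.0408, and 0.609% of all probes passed in that setting.

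In the spleen only Ctgf was tested among 8582 probes, of which 0% passed the adjustment. It had 9.69, 9.38, 9.77 and 9.96 in OPP spleens against 9.59, 10.35, 10.16 and 9.82 in control spleens. The groups overlapped and the difference was -0.28 (SE 0.17, 95% confidence interval -0.66 to 0.11, adjusted p = 0.857 by limma). The heart minus spleen difference of the OPP response was 0.35 (SE 0.36, adjusted p = 1.0), with 0% of 7209 probes passing.

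The members were then placed beside the genes that process, receive or accompany them. In the natriuretic peptide pathway 7 of 14 genes were tested in the heart, 4 higher and 3 lower in OPP hearts, and a median difference of 0.01. Corin, the cardiac protease that activates pro-atrial natriuretic peptide, had 12.11, 12.14, 12.23 and 12.04 in OPP hearts against 11.93, 11.77, 11.77 and 11.68 in control hearts. The groups did not overlap, as was the case at 7.97% of the tested probes, and the difference was 0.34 (SE 0.07, unadjusted p = 3.0e-04, adjusted p = 0.132). Furin (0.33, adjusted p = 0.414) and Gucy1a1 (-0.22, adjusted p = 0.417), also of this list, lay further from 0 than the rest. These were Gucy1b1 (0.06, adjusted p = 0.819), the receptors Npr2 (0.01, adjusted p = 0.947) and Npr3 (-0.04, adjusted p = 0.922) and the kinase Prkg1 (-0.01, adjusted p = 0.991). Npr3 was dim, with raw intensities of 71.6 to 95.7 in OPP hearts against a background of 50.6 to 55.3. Prkg1 was dim too, with a mean of 5.89 in both groups, so that small differences at these 2 genes show little. Npr1, the receptor of both cardiac peptides, was not detected often enough to be tested.

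Of the sarcomere and Z disc partners 18 of 24 were tested, 10 higher and 8 lower (median difference 0.00). An unadjusted p under 0.05 was found for 6, with 5 higher and 1 lower, where 14.1% of all heart probes had one. Fhl2, a LIM domain protein of the Z disc and of the nucleus, had 13.51, 13.46, 13.18 and 13.51 in OPP hearts against 13.85, 13.70, 13.63 and 13.94 in control hearts. Its groups did not overlap, as at 7.97% of all tested probes (difference -0.37, SE 0.09, adjusted p = 0.148). Des, the intermediate filament desmin, had 9.87 to 10.25 in OPP hearts and 9.44 to 9.76 in control hearts (difference 0.33, SE 0.10, adjusted p = 0.208). Without OPP hearts 3 and 4 the list had 3 genes at this threshold, 2 higher and 1 lower, with Fhl2 at -0.30 and Des at 0.23. Tcap, Actn2 and Myoz2, which build the Z disc itself, differed by 0.00, -0.04 and 0.01.

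Among the fetal and adult contractile and metabolic genes 16 of 18 were tested, 8 higher and 8 lower (median difference 0.01). At an unadjusted p of 0.05 there were 5 higher and 0 lower, against 6.21% higher and 7.85% lower over all heart probes, and without OPP hearts 3 and 4 there were 4 higher and 0 lower. Myh6, the adult alpha myosin heavy chain, was 13.72 to 13.89 in OPP hearts and 13.43 to 13.61 in control hearts (difference 0.25, SE 0.06, adjusted p = 0.146), while Myh7, the fetal beta chain, differed by 0.04 (SE 0.29, adjusted p = 0.973). Pdk4, a kinase that shuts down glucose oxidation in fasting, had 13.55 to 14.13 in OPP hearts and 12.29 to 13.03 in control hearts (difference 1.22, SE 0.16, adjusted p = 0.0750), the smallest adjusted p of all heart probes. Tnnc1, cardiac troponin C, had 15.16 on all 4 OPP arrays, the top value that quantile normalisation gives, against 14.91 to 15.01 in control hearts, so that its difference of 0.21 (adjusted p = 0.132) compares a ceiling with measured ranks.

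Of 27 regulators of the hypertrophic programme 19 were tested, 8 higher and 11 lower (median difference -0.01). Of the 19, 1 reached an unadjusted p of 0.05, where 14.1% of all heart probes did. The gene was Rcan1, an inhibitor and target of calcineurin, at 0.18 (SE 0.07, adjusted p = 0.321), and without OPP hearts 3 and 4 its unadjusted p was 0.0536. Gata4 (-0.04), Nkx2-5 (0.00) and Srf (-0.03), transcription factors of the heart whose sites occur in many of its promoters, had adjusted p values of 0.902, 0.995 and 0.878. Other transcription factors of the list lay further from 0, among them Hand2 (0.35), Nfatc3 (-0.23) and Mef2c (-0.15). Their adjusted p values were 0.453, 0.447 and 0.368.

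Ctgf belongs with the matricellular and fibrosis genes, of which 18 of 24 were tested, 9 higher and 9 lower (median difference 0.00). At an unadjusted p of 0.05 there were 6 lower and 0 higher, where 7.85% of all heart probes were lower and 6.21% higher at this threshold. Sparc, a collagen-binding glycoprotein, had 10.37, 10.41, 9.94 and 10.59 in OPP hearts against 10.75, 10.55, 11.09 and 11.27 in control hearts (difference -0.59, SE 0.17, adjusted p = 0.180). Col3a1, Col1a2, Postn, Ccn1 and Ccn3 were the other 5, at -0.58, -0.65, -0.34, -0.27 and -0.74, with adjusted p values of 0.236 to 0.340. Ccn1 and Ccn3 are of the same family as Ctgf, which itself differed by 0.05. Fibroblast markers, which share 3 genes with this list, were lower at 6 of 9 genes tested, with summed intensities of 16835 to 18644 in OPP hearts and 16556 to 20364 in control hearts. Without OPP hearts 3 and 4, 2 genes of the list were lower and 1 higher at an unadjusted p of 0.05, the median was -0.05, and Sparc differed by -0.53. The part of fibroblast content in these values was not tested.

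The genes of injury and cytokine response were the group furthest from 0, with 11 of 20 tested, 10 of these higher in OPP hearts and a median of 0.51, against 0.00 over all probes. At an unadjusted p of 0.05 there were 6 higher and 0 lower, where 6.21% of all heart probes were higher and 7.85% lower. Without OPP hearts 3 and 4, 5 were higher and 0 lower, the list median being 0.49. All lists were chosen with earlier results of these data known, so that the distance of this list from 0 is no test result. Mt2, a metallothionein induced by metals and glucocorticoids, had 7.71, 9.09, 8.66 and 7.87 in OPP hearts against 7.24, 7.11, 6.83 and 6.14 in control hearts. Its groups did not overlap, as at 7.97% of all tested probes (difference 1.502, SE 0.31, adjusted p = 0.132). Cdkn1a, the cell cycle inhibitor p21, had 7.79 to 8.62 in OPP hearts and 7.12 to 7.42 in control hearts (difference 0.75, SE 0.16, adjusted p = 0.132), and Mt1 had 13.27 to 13.98 in OPP hearts and 12.53 to 13.14 in control hearts (difference 0.72, SE 0.17, adjusted p = 0.136). The neutrophil markers in the heart, one of which (Lcn2) is on this list, were higher at 5 of 5 genes tested, with summed intensities of 253.2 to 2295 in OPP hearts and 143.9 to 1459 in control hearts, and their part in the list was not tested.

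No gene of these 6 lists passed the adjustment in the heart, with or without OPP hearts 3 and 4. Corin, Fhl2, Des, Myh6, Pdk4, Tnnc1, Sparc, Mt1, Mt2 and Cdkn1a are on the study's own list of changed heart genes, which was drawn from these samples, so that their direction is not independent evidence, and none of the members is on that heart list.

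**Figure D5:**
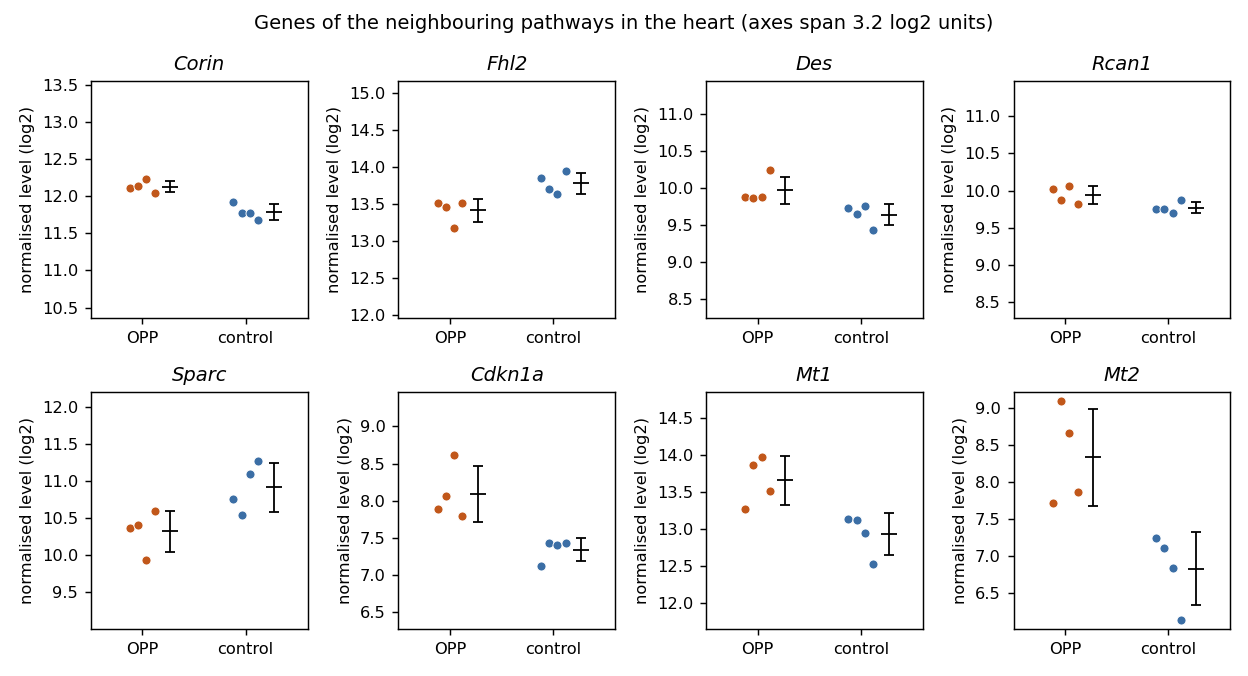
The normalised log2 level of 8 genes related to the members is plotted for 4 OPP (left) and 4 control (right) hearts, replicates 1 to 4 from left to right, with mean and SD beside the points and every vertical axis spanning 3.2 log2 units. The OPP and control hearts do not overlap for Corin, Fhl2, Des, Cdkn1a, Mt1 and Mt2, and they overlap for Rcan1 and Sparc. Groups do not overlap at 7.97% of all tested heart probes, and the genes shown were picked for the smallest p of their lists, which favours separate groups.

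Whether the members varied together from heart to heart was examined on deviations from the group means over the 8 hearts, for 15 pairs of the 6 genes. Pearson's r ran from -0.68 to 0.68 with a median of -0.07, and 7 of the 15 were positive. Nppb and Ctgf had the highest (r = 0.68, exact permutation p = 0.0417, adjusted over the pairs 0.456; Spearman's rho = 0.67, p = 0.0972 by permutation), with r = 0.50 when the 2 hearts farthest from the median of Nppb were left out. Ankrd1 and Xirp1 had the lowest (r = -0.68, exact permutation p = 0.0608, adjusted 0.456; rho = -0.90, p = 0.0191 by permutation, adjusted 0.286), with r = -0.63 without 2 hearts. None of the 15 passed the adjustment.

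The genes whose deviations were most like those of each member are given as a description, since the highest of about 7081 correlations over 8 arrays will be high. For Nppb these were Agtr1a, the angiotensin II receptor, at r = 0.989, Raver1 at 0.988 and Asl at 0.977. For Acta1 they were Chic2 at 0.972, Tomm7 at 0.967 and Pacsin3 at 0.962, and for Csrp3 they were Gltp at 0.977, Mgl2 at 0.966 and Cp at 0.962. Spsb1, Cpt2 and Mus81 were most like Ankrd1 (0.954 to 0.947), Srrm2, Eif3l and Prps1 most like Xirp1 (0.977 to 0.962), and Tdrd3, Erlin1 and Gphn most like Ctgf (0.972 to 0.960). No member was among the 3 genes most like another member.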

How the data were processed

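RNA of 23 mouse organs, 1 organ of 1 mouse per array, had been hybridised by the authors to Illumina MouseRef-8 Version 1 BeadChips. The deposited non-normalised intensity of each probe was exported by the authors from BeadStudio, which the processing notes give as version 1.5.1.3, with the background still in it, beside a deposited detection p-value from the negative controls. The authors' normalised intensities, by the rank invariant method, served as an alternative, with values below 10 set to 10. Outlier samples had been removed by the authors through clustering. Groups came from the sample labels.

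In R 4.3.3 with limma 3.58.1 the background was removed (nec, offset 16), arrays were quantile normalised per organ, or all 23 together for comparisons between organs, and put on the log2 scale. Testing was limited to probes that 3 or more arrays of the OPP or of the control group detected (p under 0.01). It was done with lmFit and eBayes with a trended variance, adjusted by Benjamini-Hochberg over all tested probes. Single members were also tested by exact permutation of the arrays. Confidence intervals are at 95%. Alternatives were the authors' values, median scaling, uncorrected background, other detection filters, the methods' t-test, array weights, 1 fit of all organs, the replicate number as a block, and leaving out each array. The platform table gave 1 symbol to 19398 of 24048 probes and none to 4650, and 66 probes without values in spleen and heart were left out. For a list, the brightest tested probe of each gene was used. The study's own error model needs the spread between beads and was not used here.

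Tested on simulated data, the steps recovered 66% of changes of 1.5-fold and 92% of 2-fold in the heart, among 9172 probes. In the liver they recovered 7% and 45% among 6434 probes. The simulated data held 100 changed probes at each fold. Their noise was drawn for each probe apart, without shifts shared over an array. In the measured hearts 0 of 9172 probes passed the adjustment, so that these percentages cannot be taken as shares recovered in the measured data. The number of arrays limits the precision. The members, the lists and the rule for named genes were chosen with earlier results of these data known. The rule names every member, up to 3 genes per list with an unadjusted p under 0.01 in the heart or else the 1 of smallest p, the 3 genes most like each member, and the brightest marker of a list. Other genes of a list were chosen for naming with their values known. The real-time PCR was not analysed here.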

Additional observations from a re-analysis of the deposited data

Results flagged for a closer look

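Both signals below lie outside the tests of OPP against control, since the probe was detected on too few arrays of the organ. Ctgf was detected on 4 of 7 livers, with raw intensities of 271.0 and 336.9 in OPP livers 1 and 2 and of 283.4 and 378.7 in control livers 2 and 4. Acta1 was detected on 1 of 8 spleens, control replicate 2, with a raw intensity of 170.4. Dixon's criterion was applied to the 18 groups of 4 arrays in which a member probe was tested for OPP against control, which leaves out Acta1 in the spleen, and no array stood apart from the other 3.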

How the results depend on the processing

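Under median scaling all heart probes together had a median of -0.12 and 554 passed the adjustment, against 0 before, and the heart differences turned to -0.056 (Csrp3 probe A), -0.10 (probe B), -0.066 (Xirp1) and -0.097 (Ctgf), Ankrd1 was -0.18, Nppb was -0.34 (adjusted p = 0.0961) and Acta1 -0.25 (adjusted p = 0.118), and 0 of 7 were called. With single hearts left out, Ankrd1 ran from -0.055 to 0.041 and Ctgf from -0.060 to 0.15, and with OPP hearts 3 and 4 left out, a setting chosen after seeing the data, Ankrd1 was 0.027. Nppb and Acta1 stayed negative in the heart under all 18 alternatives, and Csrp3 positive in the liver under all 18 (probe A 0.41 to 0.87). With all organs in 1 fit 2 of 2 liver probes were called, where 6.64% of all liver probes were. The heart minus liver difference was called at 0 to 1 of 2 probes with single arrays left out. It was called at 1 without control liver 2, where 0.609% of all 5584 probes passed against 0.0716% with every array. The calls of all 7 probes in control hearts against control livers and spleens were kept throughout. Except for Csrp3 against livers and Ctgf against spleens, their direction was given by the detection filter. Correlations of same-numbered arrays ran from -0.29 to 0.45. No differently numbered arrays were set beside them, so that they cannot show whether replicate numbers pair the samples. With the replicate block 0 member probes were called between OPP and control, while Csrp3 in the liver had an unadjusted p of 0.0171 at probe A. The methods' t-test gave 315 heart, 157 liver and 106 spleen probes at an unadjusted p of 0.01 and 0 after Benjamini-Hochberg. The 3 OPP livers and the weak recovery of small changes in the simulated livers limit the liver results.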
